A study of Mus musculus with 9 samples.

Results

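The golgins and the Golgi stacking proteins are the proteins that hold the cisternae of the Golgi apparatus together and catch the vesicles that travel between them. The 10 genes described here are the rows of the deposited table named Golga2, Golga3, Golga4, Golga5, Golgb1, Gcc1, Gcc2, Trip11, Gorasp1 and Gorasp2, of 21899 genes in all. They were chosen by name as a protein family, with earlier results of these data known. RNA was sequenced from Neuro-2a (N2a) cells, a mouse neuroblastoma line, in 9 libraries. The control group, shlucif, carried a short hairpin RNA directed at luciferase, and the groups shArf1-1 and shArf1-2 each carried a different hairpin directed at Arf1, with 3 libraries in each group. The 6 libraries with an Arf1 hairpin are called Arf1-deficient. All groups were the same cell line, without any other treatment according to the labels, and the hairpins were delivered by lentivirus in a vector with puromycin resistance. The control cells therefore carried a hairpin too, and the Arf1-deficient cells kept part of their Arf1 mRNA. Nothing in the labels says that the 3 libraries of a group came from separate cultures, so p-values measure the spread between these libraries, which may be technical.

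Golgins are long coiled-coil proteins that are anchored to the Golgi membrane at one end and reach into the cytoplasm with the other, where they bind vesicles and small GTPases. GM130 (Golga2), golgin-160 (Golga3) and GMAP-210 (Trip11) lie at the cis side, golgin-84 (Golga5) and giantin (Golgb1) span the membrane at the rims of the cisternae, and golgin-245 (Golga4), GCC88 (Gcc1) and GCC185 (Gcc2) carry a GRIP domain that brings them to the trans side. GRASP65 (Gorasp1) and GRASP55 (Gorasp2) link neighbouring cisternae into stacks and the stacks into a ribbon. Arf1 is the small GTPase that recruits the COPI coat to Golgi membranes, and GMAP-210 is held at the Golgi by a domain that binds Arf1.

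The 10 genes lie on 7 chromosomes of GRCm38 (GENCODE M21). The golgins with the largest fall and the largest rise are on the same one, Golga5 (ENSMUSG00000021192) at chr12:102469135-102497907 on the plus strand and Trip11 (ENSMUSG00000021188) at chr12:101834043-101913267 on the minus strand. Golga2 (ENSMUSG00000002546, chr2:32287384-32307921) and Gorasp2 (ENSMUSG00000014959, chr2:70661576-70712636) share chromosome 2, and Golga4 (ENSMUSG00000038708, chr9:118506267-118582519) and Gorasp1 (ENSMUSG00000032513, chr9:119925257-119937565, minus strand) share chromosome 9.

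Both hairpins were directed at the coding sequence of Arf1 on the minus strand of chromosome 11 (GRCm38). The target of shArf1-1 lies in exon 3 at chr11:59213222-59213242 and that of shArf1-2 in exon 2 at chr11:59213386-59213406, of 5 exons. The hairpin targets, which define the groups, were matched to both annotated Arf1 transcripts and to a transcript of 0 of the 10 golgin and GRASP genes, and they are given in lower case without marked bases:
shArf1-1 target: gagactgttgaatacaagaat
shArf1-2 target: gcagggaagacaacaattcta

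The upstream sequences of 3 genes are shown because they carry the largest fall (Golga5), the largest rise (Trip11) and the smallest difference between the pooled groups (Gorasp2). They are RefSeq promoter sequences of GRCm38.p6, given 5′ to 3′ on the strand of the gene. The RefSeq table matched 8 of the 10 genes by symbol, with Golga4 and Golgb1 not matched. Golga5 lies on the plus strand at chr12:102468884-102469133, Gorasp2 on the plus strand at chr2:70661259-70661508 and Trip11 on the minus strand at chr12:101913268-101913421. The Trip11 window was shortened by 96 bases that are annotated as untranslated region. Capitals mark CACGTG, the E-box bound by the MiT/TFE family of factors, which was searched on both strands in the 300-base window from 250 bases before to 50 bases after the start.
Golga5 upstream: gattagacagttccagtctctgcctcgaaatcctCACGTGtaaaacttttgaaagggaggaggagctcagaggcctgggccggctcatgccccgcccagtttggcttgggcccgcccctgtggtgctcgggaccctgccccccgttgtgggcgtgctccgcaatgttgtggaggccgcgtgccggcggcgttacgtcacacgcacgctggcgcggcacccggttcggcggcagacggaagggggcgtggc
Gorasp2 upstream: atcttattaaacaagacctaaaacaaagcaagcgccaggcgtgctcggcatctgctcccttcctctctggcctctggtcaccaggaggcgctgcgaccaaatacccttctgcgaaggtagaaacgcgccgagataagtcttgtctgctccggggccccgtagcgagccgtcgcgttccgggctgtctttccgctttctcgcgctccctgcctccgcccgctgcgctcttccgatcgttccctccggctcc
Trip11 upstream: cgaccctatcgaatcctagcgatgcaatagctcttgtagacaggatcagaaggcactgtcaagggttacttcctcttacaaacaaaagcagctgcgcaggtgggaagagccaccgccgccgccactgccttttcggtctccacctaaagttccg

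The E-box CACGTG was in the window of 8.09% of 27025 genes and of 2 golgin and GRASP genes. Golga5 holds it 216 bases before the start shown, and 202 bases before a second start listed for it. Gorasp1 holds it from base 4 after the start. ACGTGGC, the Golgi apparatus stress response element, shares the letters ACGTG with the E-box. It was in 2.95% of genes and, of the golgin and GRASP genes, in Golga3, from base 28 after the start. The cAMP response element TGACGTCA, which CREB3 family factors bind, was in 2.03% of genes and in 0 of the 8 matched golgin and GRASP genes. These matches describe letters in a window and not bound sites.

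The libraries held between 11182479 and 15594615 counts. Arf1, the targeted gene, was at 324.0 ± 6.72 FPKM with shlucif, 128.3 ± 1.73 FPKM with shArf1-1 and 164.6 ± 6.92 FPKM with shArf1-2 (SD, n = 3 each), so the labels and the target went together in every group. FPKM is the read count scaled by the length of the gene and the total of the library. Of the markers of sympathetic neuroblasts, 9 passed the count filter, whereas Nefm was at 0 counts in all 9 libraries and Nefl had at most 2 counts in any library. Between the pooled groups 7 of the 9 passed the test as higher with the Arf1 hairpins and 1 as lower, and the summed level of the list ranged from 1550.7 to 1643.1 CPM with shlucif and from 2263.3 to 2599.1 CPM in Arf1-deficient cells. The shlucif libraries also held RNA of macrophage type genes. All 12 of the 15 macrophage markers that could be tested were lower in Arf1-deficient cells. Summed over all 15, the level ranged from 275.7 to 333.6 CPM (counts scaled to a common library size) with shlucif. In Arf1-deficient cells it ranged from 1.01 to 1.88 CPM. Of the 15, 8 were at 0 in all 6 Arf1-deficient libraries, among them Ctss and Spi1. Of these 8, C1qa, Aif1 and Cx3cr1 had at most 1, 5 and 2 counts with shlucif. The part of either marker difference in the golgin and GRASP values was not tested. In bulk RNA, fewer cells of a type and less RNA per cell cannot be told apart.

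All 10 golgin and GRASP genes were expressed in N2a cells and all 10 passed the count filter. In the shlucif libraries Gorasp2 had the highest level, at 24.8 ± 0.734 FPKM, followed by Golga2 at 23.4 ± 0.330 and Golga5 at 18.4 ± 1.12 FPKM (SD, n = 3). A gap separated these from Golga4 at 8.47 ± 0.125, Golga3 at 7.87 ± 0.140 and Golgb1 at 7.48 ± 0.921 FPKM. Gcc1 was at 5.15 ± 0.291, Gorasp1 at 4.65 ± 0.164, Trip11 at 4.47 ± 0.277 and Gcc2 at 3.47 ± 0.450 FPKM. In this order the ranges of Golga3 and Golgb1 and those of Gorasp1 and Trip11 overlapped, and the other neighbours did not. The pair of stacking proteins thus had unequal mRNA levels, with Gorasp2 far above Gorasp1 in every library. The plot of levels by group shows the 9 values of each gene.

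**Figure D1:**
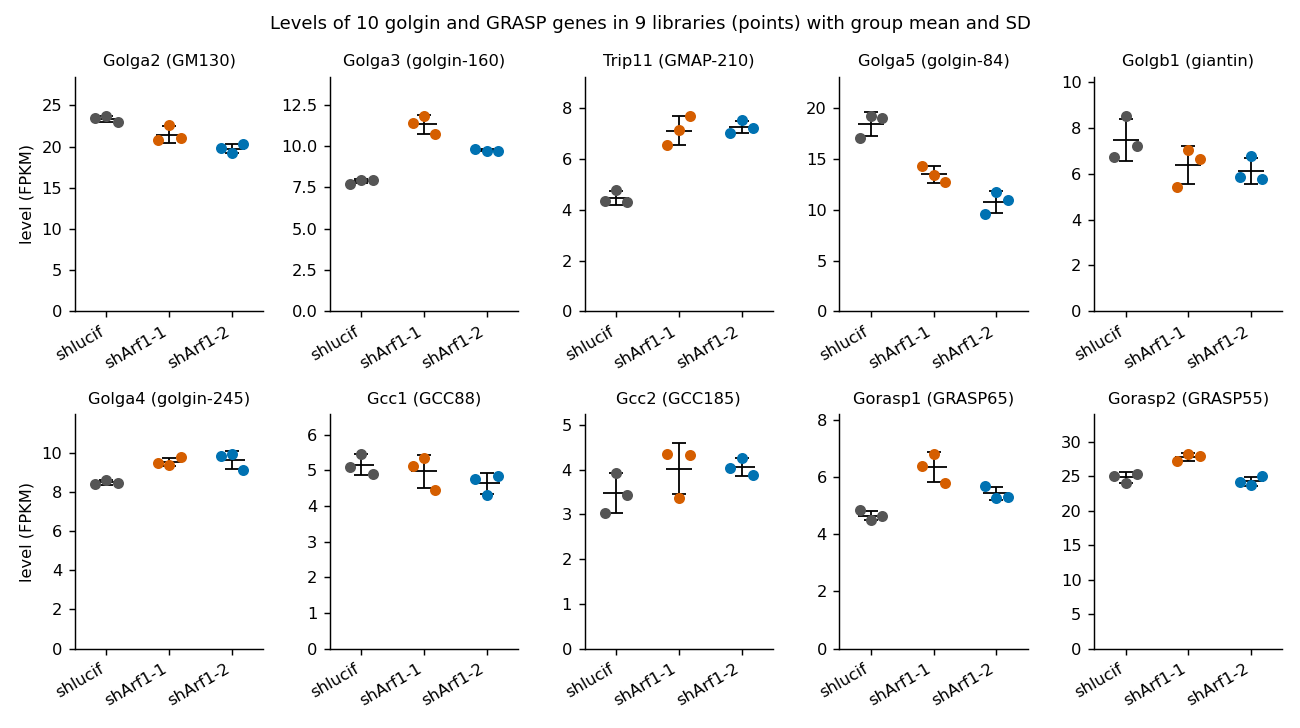
Level in FPKM (vertical axis, from 0) of each gene in 9 libraries, grouped by hairpin, with points for libraries and bars for the group mean and SD (n = 3). Golga5 falls from 18.4 FPKM with shlucif to 10.8 FPKM with shArf1-2, Trip11 rises from 4.47 FPKM with shlucif to more than 6 FPKM in every Arf1-deficient library, and the Gorasp2 points of shlucif and shArf1-2 overlap.

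In Arf1-deficient cells, golgin and GRASP mRNAs moved in both directions and by less than 2-fold. Trip11, Golga3 and Gorasp1 rose, and Golga5, Golgb1 and Golga2 fell. Golga4, Gcc1, Gcc2 and Gorasp2 did not pass the threshold of 0.05 on the p-value of the edgeR quasi-likelihood test, adjusted by Benjamini-Hochberg over 12448 tested genes. Of all tested genes, 31.6% were called higher and 32.9% lower, so 3 of 10 in each direction is near the background of this comparison. The median log2 fold change of the 10 genes was 0.06, beside 0.00 over all tested genes. For 4 of the genes every Arf1-deficient library was above every shlucif library in CPM, as for 27.9% of tested genes, and for 3 every one was below, as for 30.1% of tested genes. The fold changes rest on counts scaled by TMM. FPKM values are scaled by the library total, which moves the median log2 fold change of all genes to 0.07.

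Among the cis golgins, Trip11 rose and Golga2 fell. Trip11 was at 4.34, 4.79 and 4.29 FPKM with shlucif, 6.54, 7.13 and 7.69 FPKM with shArf1-1 and 7.04, 7.53 and 7.24 FPKM with shArf1-2. The Arf1-deficient libraries were all higher and the groups did not overlap, and the 2 hairpins gave overlapping levels. The log2 fold change was 0.62 (standard error 0.07, edgeR adjusted p = 1.91e-07), a 1.54-fold rise. GMAP-210, its product, captures vesicles that arrive at the cis Golgi and anchors Ift20, a protein of ciliary transport described with the binding partners.

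Golga2, which encodes GM130, the receptor for the tether p115 and the partner of GRASP65, was at 23.5, 23.7 and 23.0 FPKM with shlucif, 20.8, 22.6 and 21.0 FPKM with shArf1-1 and 19.8, 19.2 and 20.3 FPKM with shArf1-2. Every Arf1-deficient value was under every shlucif value, with the second shArf1-1 library closest to them. Its log2 fold change was -0.24 (standard error 0.06, edgeR adjusted p = 0.00131). With shArf1-1 alone it was -0.18 (standard error 0.06, edgeR adjusted p = 0.00749), and a correction for GC content left -0.09 (edgeR adjusted p = 0.105) and limma on log2(FPKM + 1) gave -0.12 (adjusted p = 0.0508). Exons of Golga2 share 98 bases with Swi5 on the opposite strand, and Swi5 was higher in Arf1-deficient cells (log2 fold change 0.51, edgeR adjusted p = 3.18e-06).

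Golga3 encodes golgin-160, a cis Golgi protein that binds the dynein motor. Its levels were 7.71, 7.94 and 7.96 FPKM with shlucif, 11.4, 11.8 and 10.7 FPKM with shArf1-1 and 9.80, 9.70 and 9.70 FPKM with shArf1-2. The 3 groups did not overlap, and shArf1-1 was the highest. The log2 fold change between the pooled groups was 0.36 (standard error 0.07, edgeR adjusted p = 0.000235).

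Both golgins of the cisternal rim fell. Golga5, whose product golgin-84 tethers COPI vesicles within the Golgi and binds Rab1, was at 17.1, 19.2 and 19.0 FPKM with shlucif, 14.3, 13.4 and 12.7 FPKM with shArf1-1 and 9.62, 11.7 and 11.0 FPKM with shArf1-2. The 3 groups were fully separate, with shArf1-2 lowest. The pooled log2 fold change was -0.67 (standard error 0.10, edgeR adjusted p = 1.12e-05), which left 0.63 of the control level and was the largest change among the 10 genes in this comparison.

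Golgb1 encodes giantin, a rim protein that binds p115 together with GM130. It was at 6.74, 8.51 and 7.19 FPKM with shlucif, 5.43, 7.04 and 6.65 FPKM with shArf1-1 and 5.85, 6.79 and 5.76 FPKM with shArf1-2. On this scale the lowest shlucif library lay within the Arf1-deficient range, while on the TMM scale the groups just missed each other, with at least 83.1 CPM with shlucif and at most 83.0 CPM otherwise. Its log2 fold change was -0.32 (standard error 0.08, edgeR adjusted p = 0.00271). The second shlucif library, the highest, carried part of it: without that library the pooled value was -0.23 (edgeR adjusted p = 0.0430), and the shArf1-1 value went from -0.28 to -0.19 (edgeR adjusted p = 0.0646). The shArf1-1 call was also lost without the first shArf1-1 library (edgeR adjusted p = 0.0653) with scaling by library size (edgeR adjusted p = 0.0585) and with limma on log2(FPKM + 1) (adjusted p = 0.0886).

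The 3 trans GRIP-domain golgins among the 10 genes showed no change past the threshold between the pooled groups. Golga1, a trans golgin outside the 10 genes, was higher in Arf1-deficient cells (log2 fold change 0.76, edgeR adjusted p = 3.18e-06). Golga4, whose product is recruited by Arl1 and captures vesicles from endosomes, was at 8.38, 8.61 and 8.43 FPKM with shlucif, 9.48, 9.35 and 9.75 FPKM with shArf1-1 and 9.84, 9.95 and 9.12 FPKM with shArf1-2. All 6 Arf1-deficient values were above the 3 control values, by a small margin. The log2 fold change was 0.11 (standard error 0.05, edgeR adjusted p = 0.0575), and with scaling by library size it was 0.18 (edgeR adjusted p = 0.00530). It also passed without the third shArf1-2 library (0.13, edgeR adjusted p = 0.0453), with a correction for GC content (0.14, edgeR adjusted p = 0.0161), with limma on log2(FPKM + 1) (0.16, adjusted p = 0.0138) and as the mean of the hairpin contrasts (0.12, edgeR adjusted p = 0.0378). A correction for gene length took it to 0.00 (edgeR adjusted p = 0.950).

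Gcc1 ranged from 4.90 to 5.47 FPKM with shlucif, from 4.45 to 5.34 FPKM with shArf1-1 and from 4.30 to 4.84 FPKM with shArf1-2. The groups overlapped when pooled (log2 fold change -0.17, standard error 0.09, edgeR adjusted p = 0.111). It passed the threshold with shArf1-2 alone, at -0.22 (standard error 0.10, edgeR adjusted p = 0.0409), and not without the first or the second library of shlucif or of shArf1-2, nor with scaling by library size (-0.15, edgeR adjusted p = 0.158), a correction for GC content (-0.17, edgeR adjusted p = 0.0964), no filter on low counts (edgeR adjusted p = 0.0523) or limma on log2(FPKM + 1) (-0.13, adjusted p = 0.155). Its exons share 313 bases with Arf5 on the opposite strand, and Arf5 was lower in Arf1-deficient cells (log2 fold change -0.58, edgeR adjusted p = 4.62e-07). Gcc2, whose product GCC185 recruits Clasp proteins to the trans Golgi, ranged from 3.04 to 3.93 FPKM with shlucif and from 3.36 to 4.36 FPKM in the Arf1-deficient libraries, with overlapping groups (log2 fold change 0.16, standard error 0.09, edgeR adjusted p = 0.144). Without the second shlucif library it passed the threshold with shArf1-1 (0.25, edgeR adjusted p = 0.0373) and with shArf1-2 (0.25, edgeR adjusted p = 0.0455), and without the second shArf1-1 library with shArf1-1 (0.27, edgeR adjusted p = 0.0113). Without the first shlucif library the pooled value was 0.08 (edgeR adjusted p = 0.547), and a correction for GC content took it to 0.03 (edgeR adjusted p = 0.730).

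The stacking proteins differed from each other. Gorasp1 was at 4.83, 4.51 and 4.62 FPKM with shlucif, 6.40, 6.82 and 5.78 FPKM with shArf1-1 and 5.69, 5.28 and 5.31 FPKM with shArf1-2. All Arf1-deficient values were above all control values, and shArf1-1 was highest. The pooled log2 fold change was 0.27 (standard error 0.10, edgeR adjusted p = 0.0238), and the call was lost without the second shlucif library (adjusted p = 0.0943), the third shlucif library (adjusted p = 0.0678) or the second shArf1-1 library (adjusted p = 0.0521), each from edgeR.

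Exons of Gorasp1 share 1331 bases with Wdr48 on the opposite strand, which is a large part of its listed length of 4146 bases. Wdr48 was at 4.85 ± 0.170 FPKM with shlucif, 6.11 ± 0.156 FPKM with shArf1-1 and 5.22 ± 0.107 FPKM with shArf1-2 (SD, n = 3), so it was highest in the same group as Gorasp1. Whether the counting used strand is not given in the sources used here, and the part of Wdr48 reads in the Gorasp1 counts was not tested.

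Gorasp2 was at 25.1, 24.0 and 25.4 FPKM with shlucif, 27.2, 28.3 and 28.0 FPKM with shArf1-1 and 24.1, 23.7 and 25.0 FPKM with shArf1-2. The shArf1-1 values were the highest and the other groups overlapped. Between the pooled groups the log2 fold change was 0.01 (standard error 0.07, edgeR adjusted p = 0.933). Its exons share 230 bases with Tlk1 on the opposite strand, which was higher in Arf1-deficient cells (log2 fold change 0.56, edgeR adjusted p = 2.41e-07).

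Summed over the 10 genes, the FPKM values ranged from 105.8 to 110.6 with shlucif, from 111.1 to 115.1 with shArf1-1 and from 100.5 to 102.4 with shArf1-2. The make-up of this sum differed more than its size. Golga5 made up 17.0% ± 0.723 of it with shlucif, 12.0% ± 0.801 with shArf1-1 and 10.6% ± 0.926 with shArf1-2 (SD, n = 3). Over the same groups Trip11 went from 4.13% ± 0.188 to 6.33% ± 0.529 and 7.15% ± 0.187, and Golga3 from 7.27% ± 0.0871 to 10.1% ± 0.359 and 9.57% ± 0.152. By place, the summed level of the 2 rim golgins was between 23.9 and 27.7 FPKM with shlucif and between 15.5 and 20.4 FPKM in Arf1-deficient cells, and that of the 3 cis golgins was between 35.3 and 36.4 FPKM with shlucif, between 38.8 and 41.5 FPKM with shArf1-1 and between 36.4 and 37.3 FPKM with shArf1-2. The cis sums with shArf1-1 were thus all above those of shlucif, and those with shArf1-2 met them.

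Next, each hairpin was compared with shlucif in a fit of the 3 groups. These comparisons share the 3 shlucif libraries, so their values are given side by side. With shArf1-1, 3 of the 10 genes were higher (Golga3, Trip11 and Gorasp1), where 33.1% of tested genes were, and 3 were lower (Golga2, Golga5 and Golgb1), where 34.4% were. With shArf1-2, 2 were higher (Golga3 and Trip11), where 30.9% of tested genes were, and 4 were lower (Golga2, Golga5, Golgb1 and Gcc1), where 32.6% were. The log2 fold change of Trip11 was 0.62 with shArf1-1 and 0.63 with shArf1-2. For Golga5 it was -0.51 with shArf1-1 and -0.85 with shArf1-2, and for Golgb1 -0.28 and -0.36. Golga3 was at 0.47 with shArf1-1 and 0.23 with shArf1-2, and a correction for gene length took the latter to 0.13 (edgeR adjusted p = 0.0588). Gorasp1 was at 0.39 with shArf1-1 (edgeR adjusted p = 0.000935) and 0.15 with shArf1-2 (edgeR adjusted p = 0.184). Scaling by library size took the latter to 0.22 (edgeR adjusted p = 0.0466) and Gorasp2 with shArf1-1 from 0.11 to 0.17 (edgeR adjusted p = 0.0107). Both also passed with limma on log2(FPKM + 1), at 0.0308 and 0.00839, and Gorasp2 with a correction for GC content (0.17, edgeR adjusted p = 0.00474). The log2 fold change of Arf1 itself was -1.39 with shArf1-1 and -1.05 with shArf1-2.

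**Figure D2:**
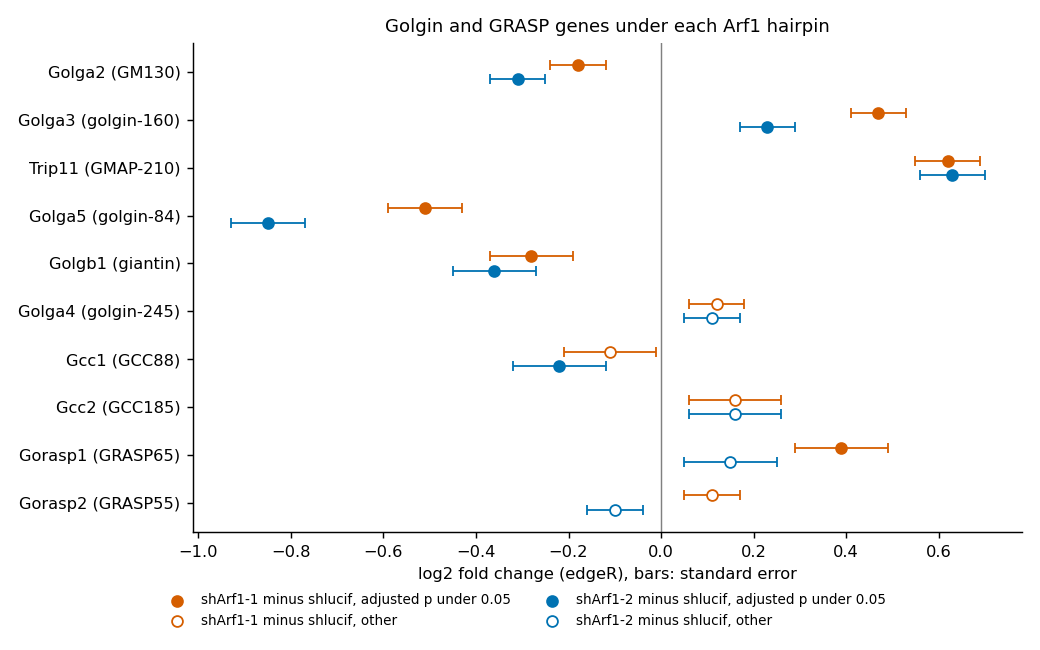
Log2 fold change (horizontal axis) of each gene with shArf1-1 and with shArf1-2 against shlucif, with standard errors from edgeR and filled points for an adjusted p under 0.05. Trip11 sits at 0.62 and 0.63, Golga5 at -0.51 and -0.85, and Golga4, Gcc2 and Gorasp2 have open points for both hairpins, which share the shlucif libraries.

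The hairpins were then compared directly, to see which golgin and GRASP levels depended on the hairpin. Golga5, Golga3 and Gorasp2 were lower with shArf1-2 than with shArf1-1. This is 3 of 10 genes lower, where 7.46% of tested genes were, and 0 of 10 higher, where 6.98% were. The median log2 difference of the 10 genes was -0.12, beside 0.00 over all tested genes. The difference was -0.34 for Golga5 (standard error 0.08, edgeR adjusted p = 0.00360), -0.23 for Golga3 (standard error 0.06, edgeR adjusted p = 0.00465) and -0.22 for Gorasp2 (standard error 0.06, edgeR adjusted p = 0.0112). Without the first shArf1-2 library the adjusted p of Golga5 was 0.0530, and without the second that of Gorasp2 was 0.0643, both from edgeR. Golga2 (-0.14, edgeR adjusted p = 0.122) and Gorasp1 (-0.23, edgeR adjusted p = 0.107) missed the threshold and passed it after a correction for GC content, at 0.0167 and 0.0407. Trip11 differed by 0.01 (standard error 0.07, edgeR adjusted p = 0.957). Arf1 itself was higher with shArf1-2 by 0.34 (standard error 0.05, edgeR adjusted p = 1.16e-05).

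Because GM130 binds GRASP65 and golgin-45 (Blzf1) binds GRASP55, the ratios of these partners were computed within each library, where a scaling factor cancels. The log2 ratio of Golga2 to Gorasp1 was 2.28, 2.39 and 2.32 with shlucif, 1.70, 1.73 and 1.86 with shArf1-1 and 1.80, 1.86 and 1.93 with shArf1-2. Every Arf1-deficient library had less Golga2 per Gorasp1 than every control library, with a mean difference of -0.52. For Gorasp2 to Blzf1 the log2 ratio was 2.43, 2.11 and 2.48 with shlucif, 1.69, 1.88 and 1.73 with shArf1-1 and 1.64, 1.74 and 1.69 with shArf1-2, a difference of -0.61 without overlap. The second shlucif library was the lowest of the controls. The log2 ratio of Gorasp1 to Gorasp2 went from between -2.46 and -2.38 with shlucif to between -2.28 and -2.05 in Arf1-deficient cells, a difference of 0.27. Each of the 3 ratios had p = 0.0238 in an exact two-sided permutation test of 6 against 3 libraries, the smallest p this design allows, and 0.0238 after Benjamini-Hochberg adjustment over the 3. Golga2 and Gorasp1 were each already separate in FPKM, in opposite directions, so their ratio had to separate and give this p. In the other ratios Gorasp1 and Blzf1 (at most 5.56 FPKM with shlucif, at least 7.07 FPKM otherwise) were separate on their own. The p-values of the ratios thus largely restate the values of single genes. The ratios that use Gorasp1 carry the exon overlap with Wdr48.

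**Figure D3:**
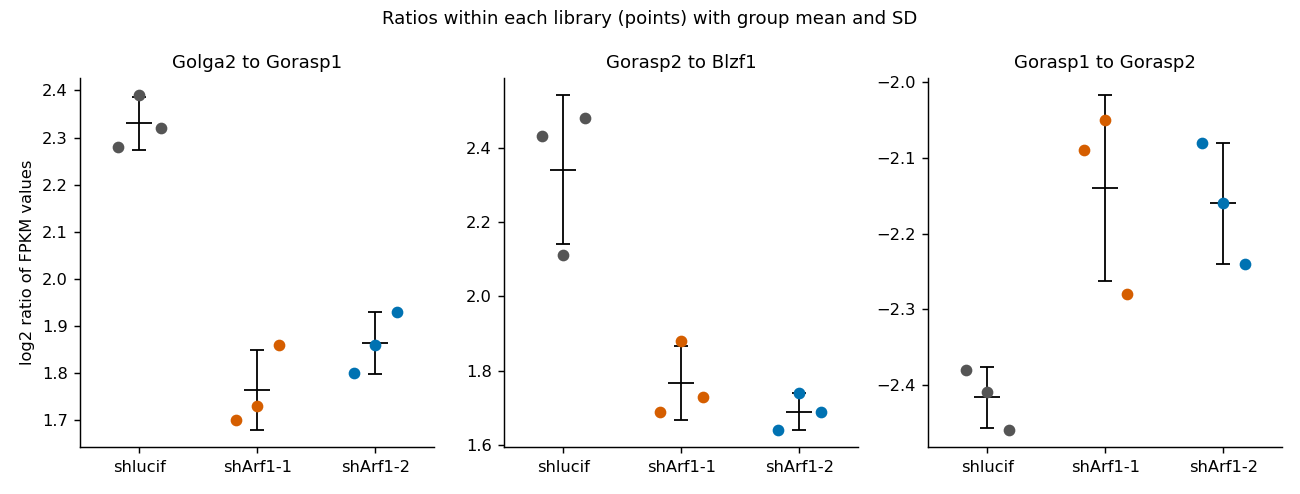
Log2 ratio of FPKM values within each library (vertical axes, which do not start at 0) for the 3 pairs of genes, grouped by hairpin, with points for libraries and bars for the group mean and SD (n = 3). The 6 Arf1-deficient points lie below the 3 shlucif points for Golga2 to Gorasp1 and for Gorasp2 to Blzf1, and above them for Gorasp1 to Gorasp2.

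The genes that work with the golgins were described by 7 lists written for this purpose, with 75 of 78 genes tested. Between the pooled groups 33 of them rose and 20 fell, with a median log2 fold change of 0.13. Over all tested genes 31.6% were higher and 32.9% lower with a median of 0.00, and the counts of each list, which holds at most 12 genes, are given as a description beside that background. The other coiled-coil tethers had 6 of 10 genes higher and 2 lower (median 0.28). Bicd1, an adaptor of dynein, rose from 0.210 ± 0.0174 FPKM to 0.859 ± 0.0636 with shArf1-1 and 0.767 ± 0.00860 with shArf1-2 (SD, n = 3), a low level throughout. Golga1, which encodes the trans golgin golgin-97, had a log2 fold change of 0.76 and Blzf1, the GRASP55 partner, of 0.61, while Ccdc186 fell by 0.33 and Cux1, whose CASP splice form is a rim golgin, by 0.23.

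Of 11 tested binding partners, 6 were higher and 2 lower (median 0.42). Clasp1, a microtubule end-binding protein that GCC185 recruits, rose by 0.84 (edgeR adjusted p = 8.95e-10). Akap9, which GM130 uses to grow microtubules from the Golgi, rose by 0.82 (edgeR adjusted p = 4.36e-08). Ift20, the ciliary transport protein that GMAP-210 anchors, went from 13.0 ± 2.27 FPKM with shlucif to 23.5 ± 1.83 with shArf1-1 and 18.8 ± 1.60 with shArf1-2 (SD, n = 3). Macf1 fell by 0.32 and Stk25, a kinase bound by GM130, by 0.20 on the log2 scale. The fall of Stk25 lay mostly with shArf1-1, at 29.4 ± 0.906 FPKM with shlucif, 24.6 ± 0.907 with shArf1-1 and 28.7 ± 0.587 with shArf1-2 (SD, n = 3).

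The list of GTPases that recruit or bind golgins, which also holds a gene whose product is not a GTPase, had 4 of 10 tested genes higher and 1 lower (median 0.14). Rab30 rose by 0.46, Arl1 by 0.25 and Arfrp1, which acts before Arl1, by 0.24, with the Arl1 libraries overlapping between the groups, and Rab1a fell by 0.17. The COG and GARP complexes, which tether vesicles together with golgins, had 5 of 12 genes higher and 4 lower (median 0.15), which is near the background in both directions. Cog1 rose by 0.42 and Cog7 by 0.26, Cog5 fell by 0.44 and Cog4 by 0.39, and within GARP Vps53 rose by 0.64 and Vps51 fell by 0.30. The Golgi SNAREs and fusion factors, which act in the fusion of the tethered vesicles, had 4 of 12 genes higher and 2 lower (median 0.06). Gosr2 rose by 0.52, Vti1a by 0.45 and Ykt6 by 0.35, and Stx6 fell by 0.52 and Stx16 by 0.37. Of the partners and tethers named here, Arl1 lost its call under 5 alternatives, Rab1a and Stk25 under 4 each, Cux1 under 2, and Rab30 and Cog7 under 1 each.

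The kinases and reassembly factors that act on GM130 and the GRASPs had 5 of 10 genes higher and 4 lower (median 0.07). The mitotic regulators Ccnb1 and Plk1, which take part in the unstacking of the Golgi at cell division, rose by 0.54 and 0.52, and Nsfl1c, the p97 cofactor p47 that helps cisternae reform, by 0.23. Plk3 went from 30.8 ± 1.96 FPKM with shlucif to 12.3 ± 0.714 with shArf1-1 and 14.5 ± 0.271 with shArf1-2 (SD, n = 3), a log2 fold change of -1.26. Mapk3 (Erk1) fell by 0.72 and Map2k1 (Mek1), its activating kinase, by 0.49.

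The Golgi stress response list had 3 of 10 tested genes higher and 5 lower (median -0.41). Uap1l1 fell from 19.8 ± 0.506 FPKM with shlucif to 4.72 ± 0.125 with shArf1-1 and 6.37 ± 0.546 with shArf1-2 (SD, n = 3), a log2 fold change of -1.90 (edgeR adjusted p = 2.79e-11). Tfeb, a factor of the MiT/TFE family, had a log2 fold change of -1.29, and Stx3, a SNARE, of -0.82. Tfe3, of the same family as Tfeb, was at 0.01 and Creb3 at 0.09, both not called. Arf4 had a log2 fold change of 0.18 with overlapping libraries (edgeR adjusted p = 0.0494), and its call was lost in 13 of its alternatives. The other 4 called genes averaged fewer than 5 CPM in both groups and were chosen after their values were seen, and their log2 fold changes stand in parentheses. Serpinh1, a collagen chaperone, went from between 20 and 33 counts with shlucif to between 32 and 55 counts in Arf1-deficient cells (0.74), and St3gal6, a sialyltransferase, from between 3 and 7 to between 6 and 20 counts (1.38), both with overlapping count ranges. Rab20 went from between 23 and 31 counts to at most 5 (-3.12) and St3gal1, a sialyltransferase, from between 59 and 75 counts to at most 5 (-4.80). The macrophage marker RNA fell over the same libraries, and its part in the falls of this list was not tested.

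**Figure D4:**
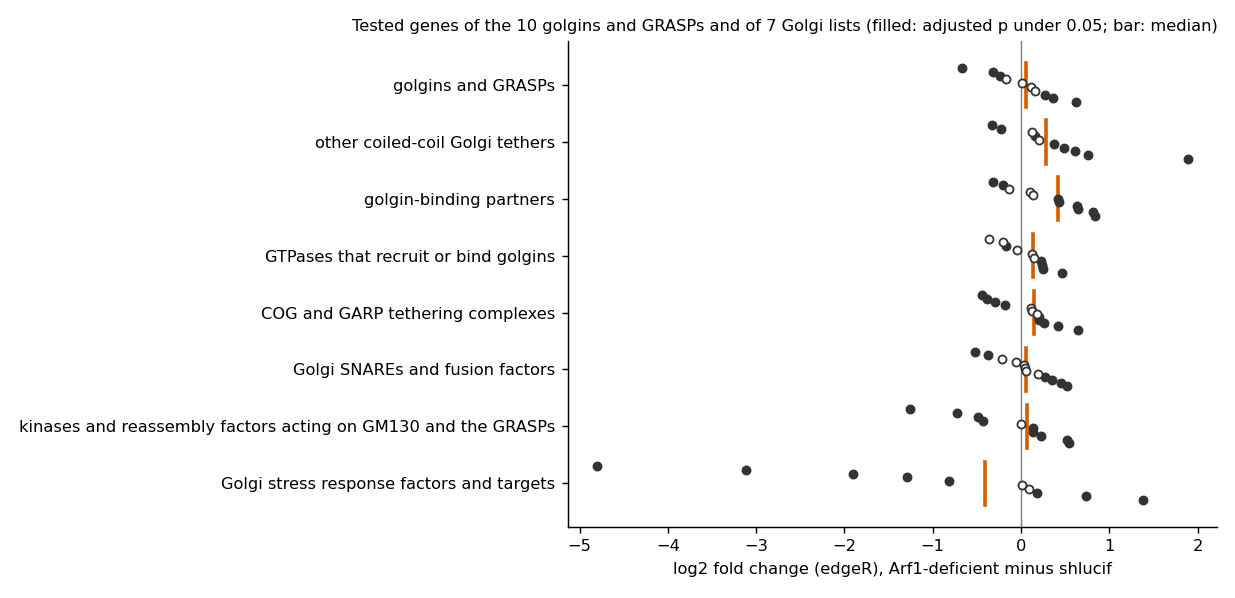
Log2 fold change between Arf1-deficient and shlucif libraries (horizontal axis) of the tested genes among the 10 golgins and GRASPs and in 7 Golgi lists (rows), with filled points for an edgeR adjusted p under 0.05 and an orange bar for the median. The median is 0.06 for the 10 genes, 0.42 for the golgin-binding partners and -0.41 for the Golgi stress response list.

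The genes of this family are long and differ in base composition, so both were set beside the values. Of the 5 golgins with a listed length of 9000 bases or more, 2 were higher (Golga3 and Trip11), 1 lower (Golgb1) and 2 not called (Golga4 and Gcc2). Among the 1689 tested genes of such length, 39.8% were higher and 29.8% lower, with a median log2 fold change of 0.08. With a correction for length, Trip11 was at 0.54 and Golga3 at 0.25, and Golgb1 at -0.42, each still past the threshold by edgeR. GC content ranged from 41.1% in Gcc2 and 43.3% in Trip11 to 55.3% in Golga2. In the 3110 tested genes under 45% GC the median log2 fold change was 0.11, and with a correction for GC content Trip11 was at 0.53 and Golga2 at -0.17, both past the threshold by edgeR. Other values moved further. The length correction took Golga4 from 0.11 to 0.00 and Gcc2 from 0.16 to 0.09, and the GC correction took Gcc2 to 0.03, brought Golga4 past the threshold and ended the call of Golga2 with shArf1-1 and that of Gcc1 with shArf1-2.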

How the data were processed

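RNA from N2a cells was enriched on oligo(dT) beads and randomly primed, per the labels. The authors deposited 1 table with a read count and an FPKM value per gene and library. The deposited counts were not normalized, and the deposited FPKM values equal the count divided by listed length and library total (largest relative deviation 1.9e-07). The submitters' processing notes name mm10, and the aligner, counter and strand setting are not given in the sources used here. Only 565 of 21846 matched genes have the same start in the table as in GENCODE M21 (GRCm38), so coordinates are GENCODE's. Columns whose names carry shArf2 were taken as shArf1-2, since the labels name no hairpin against another gene. Library totals set the precision of each value.

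Counts were filtered (filterByExpr), scaled (TMM) and tested with edgeR 4.0.16 (quasi-likelihood, robust) in R 4.3.3, in a fit of 2 groups and a fit of 3 groups. Ratios were tested by exact permutation (scipy). The test functions were tested on simulated data. The genes named were the 10 members, Arf1, genes of the 3 ratios, and per list up to 3 genes in each direction with the largest change past the threshold and at least 5 CPM in the higher group. Overlapping genes were added, and so were Tfe3 and Creb3 after their values were seen. A neuroblast marker is not reported here. The members and lists were chosen with earlier results of these data known, and the motifs and overlaps after the values were seen. Alternatives were DESeq2 1.42.0, library size and upper quartile scaling, no filter or at least 10 counts in every library, limma 3.58.1 on log2(FPKM + 1) and log2(FPKM + 0.1), length and GC corrections, a replicate block, the mean of the hairpin contrasts, a fit without shlucif, and leaving out each library.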

Additional observations from a re-analysis of the deposited data

Results flagged for a closer look

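For 3 of the 10 genes the level differed between the hairpins by the direct test of that difference. The log2 difference, shArf1-2 minus shArf1-1, was -0.34 for Golga5, -0.23 for Golga3 and -0.22 for Gorasp2. The sign makes the fall of Golga5 larger and the rise of Golga3 smaller with shArf1-2, the hairpin that left more Arf1 mRNA. Gorasp2 passed the threshold against shlucif neither with shArf1-1 (0.11, edgeR adjusted p = 0.0931) nor with shArf1-2 (-0.10, edgeR adjusted p = 0.124). No cause was tested, and each hairpin is 1 sequence.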

How the results depend on the processing

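The count of golgin and GRASP genes past the threshold stayed within 1.5 times its reported value under every alternative run, except that between the hairpins it rose from 3 to 5 with a correction for GC content and to 5 with that correction and the replicate block. Over all tested genes the count between the hairpins also rose, from 1798 to 2314 and to 2567 in the same fits. Leaving out each library gave 5 to 7 genes for the pooled comparison, 5 to 7 for shArf1-1, 5 to 7 for shArf1-2, 2 to 3 between the hairpins and 44 to 55 for the Golgi lists. Over all tested genes the number called was then 0.90 to 1.01 times its main value for the pooled comparison. It was 0.94 to 1.01 times for shArf1-1, 0.93 to 1.04 for shArf1-2 and 0.64 to 1.10 between the hairpins. The ratios kept their direction. With labels permuted within replicate number (replicate block) the values -0.52, -0.61 and 0.27 had p = 0.0741 in an exact test, the smallest that design allows. Leaving out a library gave -0.54 to -0.49 for Golga2 to Gorasp1, -0.72 to -0.54 for Gorasp2 to Blzf1 and 0.24 to 0.29 for Gorasp1 to Gorasp2. Without a shlucif library the smallest p by exact permutation is 0.0714, so no call is possible. Same-numbered libraries of different groups did not deviate together (correlations of -0.10 to 0.13), and in 6 of 18 cases a library correlated best with its own number. With the replicate block, 6 genes passed between the pooled groups, 6 with each hairpin and 3 between the hairpins. The number called over all tested genes was 0.97 times its main value for the pooled groups and 1.00 to 1.01 times for the other comparisons. No called value changed sign. The totals of 11182479 to 15594615 counts limit the lowest genes most, Gorasp1 and Gcc1 with 250 to 387 counts in a library.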
